A study of Mus musculus with 28 samples.

Results

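The genes described here are the protein-coding genes of the mouse whose exons stretched over at least 500 kb of chromosome. The span of a gene was taken from the counting tables as its largest exon end minus its smallest exon start, and genes of several families of channels, receptors, splicing factors and synaptic vesicle proteins were dropped by symbol, which removed 18 genes. This left 196 of the 21578 protein-coding genes, and the tables list 45513 genes of all kinds. The rule for these 196 genes used annotation only, and no measured value entered it. The genes named and the lists by role were chosen with earlier results of these data known.

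Their levels were read in ribosome footprint and total mRNA libraries of MN1 cells and of cortical neurons. MN1 is a clonal line made by fusing mouse spinal motor neurons with neuroblastoma cells. Its cultures were transiently transfected with plasmids for GFP, human TDP-43 (hTDP-43) or its disease mutant hTDP-43 A315T, all from a viral promoter, with 2 cultures per group, and were given cycloheximide at 100 µg/ml for 3 min. Neurons were cultured for 14 days from the cortex of day 16 embryos, with an agent that halts cell division, and did not receive cycloheximide before lysis. They came from mice hemizygous for an hTDP-43 transgene (3 cultures) or an hTDP-43 A315T transgene (3 cultures), both driven by the prion protein promoter, and from non-transgenic littermates (WT, 2 cultures). The mice thus carried the endogenous Tardbp gene in every group. Each culture gave 1 footprint and 1 total mRNA library, 28 in all.

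Genes of this size owe their length to introns, which RNA polymerase must copy and the spliceosome remove before a message of ordinary size leaves the nucleus. In vertebrates many of them encode proteins of the neuronal surface and the synapse. TDP-43, an RNA-binding protein that favours UG-rich sequence, binds many sites in long introns of brain pre-mRNAs, and long-intron messages such as Nrxn3, Nlgn1 and Fgf14 are known to fall when it is removed from the mouse brain.

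The median span of the 196 genes was 734250.5 bases. The longest were Gm20388 (4434881 bases), Fgfr2 (2960899), Ptprd (2270723), Dmd (2257271) and Cntnap2 (2244152). Just inside the limit lay Edil3 (501751), Dock1 (502952) and Car10 (503721), and just outside it Dnm3 (495581), Ank3 (493666) and Abca13 (492317). Their exons summed to a median of 8958 bases, against 2956 for all protein-coding genes, in a median of 23 exon blocks against 7. The longest intron had a median of 208568 bases against 5290, exceeded 100 kb in 174 of the 196 genes and exceeded 500 kb in 19. In a later annotation of the same genome build 152 of the 196 had the same coordinates, while 2 would have been under the limit, Chd1 (67643 bases) and Arhgap26 (383139 bases). For these 2 genes the long span rests on the annotation used for counting.

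To show what the long introns hold, the longest uninterrupted run of TG, which is read as UG in the RNA, was located in each of 3 genes known as long-intron targets of TDP-43. The 30-base windows below are from GRCm38, written 5′ to 3′ on the strand of the gene, with 8 bases before the run in lower case and the start of the run in capitals. All 3 windows lay in introns.
Nrxn3, a presynaptic adhesion protein, chr12:90252279-90252308 on the plus strand: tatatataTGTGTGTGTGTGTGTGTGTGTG
Nlgn1, a postsynaptic adhesion protein, chr3:25869986-25870015 on the minus strand: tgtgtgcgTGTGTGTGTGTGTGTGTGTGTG
Fgf14, a partner of sodium channels, chr14:124193219-124193248 on the minus strand: atatacttTGTGTGTGTGTGTGTGTGTGTG

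The whole runs were 62 bases long in Nrxn3, 54 in Nlgn1 and 44 in Fgf14. Counting every run of at least 12 bases (6 TG units, gene strand only), Nrxn3 held 153, Nlgn1 75 and Fgf14 34. All 196 long genes held at least 1 such run, and so did all 695 genes of 200 to 500 kb. Of the 21488 protein-coding genes scanned 61.0% did. In the long genes the number ran from 6 in Skint5 to 512 in Gm20388 with a median of 77.5. Per length the comparison depends on the measure. The median density per gene was 9.58 runs per 100 kb in the long genes, 10.2 in genes of 200 to 500 kb and 5.91 over all protein-coding genes. The density summed over all their bases was 10.0, 10.9 and 10.4. The longest run had a median of 56 bases in the long genes, 52 in genes of 200 to 500 kb and 24 over all. These matches describe the letters of the genome and were not measured as binding sites.

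Of the 196 genes, 170 had enough counts to enter the comparison of the cell types in total mRNA or in footprints (169 and 150, and 149 in both). Of the 26 that entered neither, 6 had no count in any library. These were read-through models (Gm20388, Gm37240, Gm42416, Gm37013, Gm37388 and Iqschfp), whose exons coincide with those of other genes, and reads on exons of more than 1 gene were not assigned. The other 20, among them Ctnna3, Il1rapl2, Agbl4 and Dock2, had counts that were too low.

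The 28 libraries held between 166064 and 6969578 reads assigned to genes. Markers of dividing cells summed to 522 to 759 CPM (counts per 1e6 assigned reads, after the read total of each library was multiplied by its TMM factor) in MN1 total mRNA and 4.24 to 13.4 in neurons. Neuron markers reached 5174 to 6112 in neurons against 428 to 536 in MN1 cells, with none of the 10 at 0. Motor neuron markers reached 48.7 to 70.3 in MN1 cells against 4.32 to 10.99 in neurons. Astrocyte markers summed to 69.0 to 165 CPM in neuron total mRNA and 35.0 to 66.2 in MN1 cells. Mouse Tardbp lay between 224 and 246 CPM in GFP total mRNA and between 347 and 426 in both TDP-43 groups, while in neuron total mRNA it lay between 65.4 and 112 in WT and between 58.3 and 88.1 in the transgenic groups, and human sequence can reach these counts through its similarity. In 2 neuron total mRNA libraries, WT replicate 3 and hTDP-43 replicate 3, a single gene (Lars2) took 18.8% and 14.1% of reads, compared with 3.09% to 7.49% in the other total mRNA libraries. The TMM factors of these 2 libraries were 0.681 and 0.743, which raises their CPM, and those of the other 26 libraries lay between 0.877 and 1.25.

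Reads on the 196 genes made up 0.210% to 0.252% of total mRNA reads and 0.180% to 0.208% of footprints in MN1 cells. In neurons they made up 1.25% to 1.58% and 1.48% to 1.87%. The ranges of the cell types did not overlap in either library type.

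**Figure D1:**
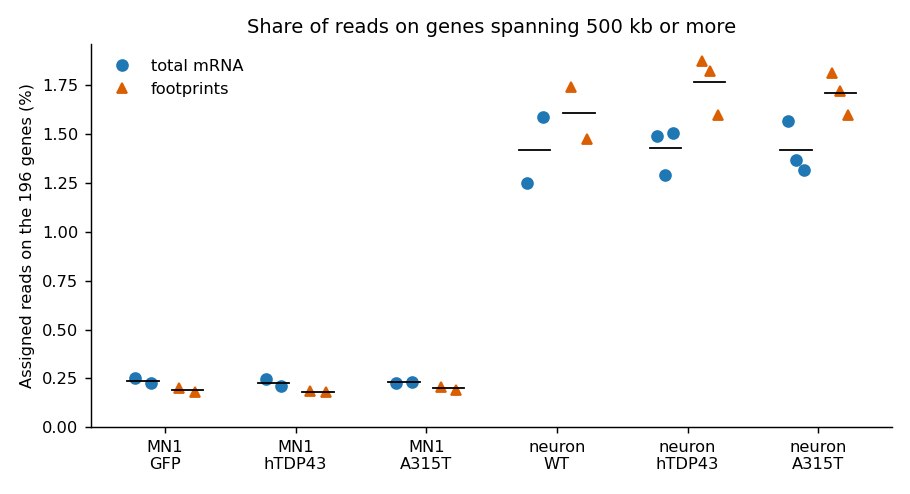
Share of assigned reads (percent, vertical axis) on the 196 genes in each of the 28 libraries, by cell type and group. Circles are total mRNA, triangles footprints, and black bars group means. Every neuron library lies between 1.25% and 1.87%, and every MN1 library at or below 0.252%.

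To compare levels between genes, CPM were divided by the exon length in kb (RPKM). In MN1 total mRNA 34 of the 196 genes (17.3%) had a mean above 1 RPKM, against 47.1% of all protein-coding genes, and their median level was 0.0627 against 0.621. In neurons 153 (78.1%) were above 1 RPKM, against 52.2% of all protein-coding genes, with a median of 3.76 against 1.31. The long genes were thus below the typical gene in one cell type and above it in the other. Genes of 200 to 500 kb did the same, with medians of 0.422 in MN1 cells and 4.54 in neurons (42.4% and 75.7% above 1 RPKM).

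In MN1 total mRNA the highest level per length belonged to Slit3, a secreted axon repellent, with 66.8 ± 5.44 RPKM (SD, n = 6). Atrnl1 (14.8 ± 2.14), the chromatin remodeller Chd1 (10.6 ± 2.57) and the adhesion protein Tenm3 (9.10 ± 0.933) followed. Pard3, Alk, Immp2l, Magi1 and Enox1 were also among the first 10. In neuron total mRNA the order was led by Ctnnd2, the delta-catenin of synaptic junctions, with 93.2 ± 16.3 RPKM (SD, n = 8), above 97.9% of protein-coding genes. Cdh13 (44.6 ± 5.16), a cadherin without a cytoplasmic tail, Ptprn2 (36.9 ± 4.56), Negr1 (36.4 ± 6.65), Fam155a (35.0 ± 3.50) and Dlg2 (34.9 ± 8.54) were among those that followed. From Ptprn2 to Dlg2 the neighbours differed by less than 1 SD, so their order was not resolved. Atrnl1 was among the first 10 in both cell types.

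Neurons and MN1 cells were compared over all groups of each, 8 against 6 libraries per library type. The filter on low counts ran over both cell types, so a gene could enter through its neuron reads alone. For a gene with almost no MN1 reads, a higher level in neurons was thus set by the filter. This holds for the counts here and for those by span and role below. In total mRNA 154 of the 169 genes tested were higher in neurons, 8 were lower and 7 did not pass an adjusted p of 0.05 (edgeR quasi-likelihood test). Over all 12801 genes tested, 42.6% were higher and 38.4% lower. The median log2 fold change was 5.71 for the long genes and 0.08 for all protein-coding genes. In footprints 135 of 150 were higher and 7 lower, where 42.7% and 39.9% of all genes tested were, and the medians were 6.13 and 0.06. Cell type goes together with the kind of culture, cycloheximide and date of preparation here, which cannot be told apart from it, and in bulk RNA a larger share of expressing cells cannot be told apart from more RNA per cell.

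Many of these genes had almost no reads in MN1 cells, so that fitted fold changes depend on the small number the model adds to each count. In total mRNA 6 of the tested genes had no MN1 read and 26 had 1 to 3 in all 6 libraries. In footprints 24 and 52 did. With genes at 0 and those with 1 to 3 counts all set to the bound that 3 counts allow, the medians were 5.56 and 5.28. Among the genes with more than 3 MN1 counts the median was 4.83 in total mRNA (137 genes, 122 higher and 8 lower) and 2.62 in footprints (74 genes, 59 higher and 7 lower).

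The difference rose in steps with the span of the gene. In total mRNA the median log2 fold change was −0.34 for protein-coding genes under 10 kb, −0.20 for 10 to 50 kb, 0.39 for 50 to 100 kb, 1.18 for 100 to 200 kb and 2.95 for 200 to 500 kb, before the 5.71 of the long genes. The share of genes higher in neurons went from 33.6% under 10 kb to 75.9% at 200 to 500 kb and 91.1% among the long genes. Footprints gave −0.38, −0.20, 0.33, 1.14, 2.92 and 6.13. Within the 196 genes the size of the difference was only loosely tied to architecture: across the 169 genes Spearman's rho was 0.14 with span, 0.28 with the longest intron and −0.20 with exon length, as a description over genes that share the same libraries.

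**Figure D2:**
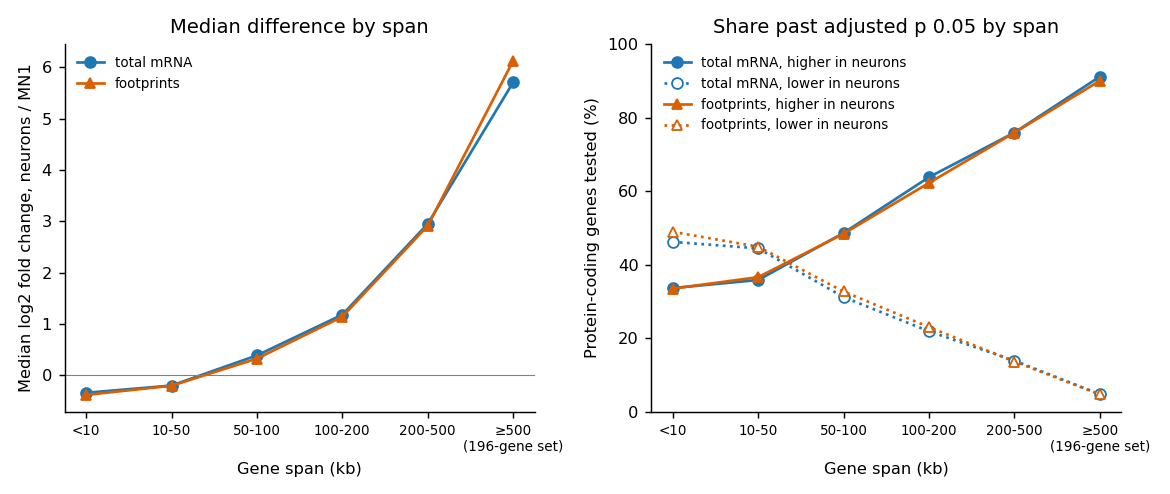
Left, median log2 fold change of neurons over MN1 cells by gene span (kb) for protein-coding genes, with circles for total mRNA and triangles for footprints. Right, percent of the tested genes past an adjusted p of 0.05, filled symbols for higher and open symbols for lower in neurons. The share higher climbs from 33.6% to 91.1% in total mRNA.

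These 3 long-intron targets of TDP-43 were all higher in neuron total mRNA. Nrxn3 lay between 134 and 445 CPM in neurons (median 225) and between 0 and 4.11 in MN1 cells (median 1.29). Nlgn1 lay between 31.7 and 95.3 against 0 to 1.21, and Fgf14 between 17.3 and 40.8 against 0.302 to 0.912. In none of these genes did the cell types overlap.

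The log2 fold changes were 7.56 ± 0.44 (SE) for Nrxn3, 6.62 ± 0.46 for Nlgn1 and 5.56 ± 0.36 for Fgf14, and the largest adjusted p among them was 4.7e-09. In footprints the MN1 cells had 3 reads of Nrxn3 in all and the neurons 3132, a ratio of 615 (95% interval 210 to 2980, counting error only).

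**Figure D3:**
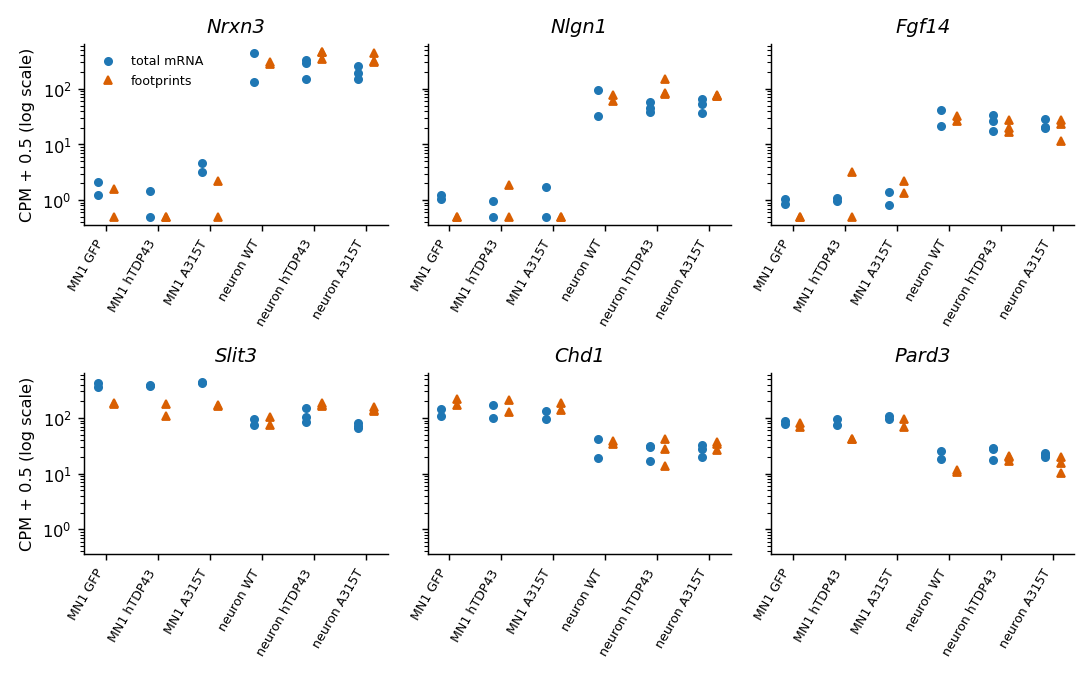
CPM + 0.5 on a log axis in each library for 3 long-intron targets of TDP-43 (Nrxn3, Nlgn1, Fgf14) and for Slit3, Chd1 and Pard3, by group, with circles for total mRNA and triangles for footprints. The first 3 are higher in neuron total mRNA (Nrxn3 between 134 and 445 CPM against at most 4.11), while Slit3, Chd1 and Pard3 are higher in MN1 total mRNA.

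By role, the largest group was made of adhesion and recognition proteins of the synapse (42 genes). In total mRNA 39 of the 40 tested were higher in neurons and none lower, with a median log2 fold change of 7.17, and in footprints all 39 tested were higher (median 7.68). Ctnnd2 stood at 470 to 769 CPM in neurons and 0.912 to 1.82 in MN1 cells, a log2 fold change of 8.82 ± 0.22. Cdh13 stood at 419 to 580 against 0 to 2.74. Ctnna2, which links cadherins to actin, differed by 5.03 ± 0.15 and Kirrel3, an immunoglobulin-type adhesion protein, by 8.67 ± 0.22. The 1 exception was Csmd3, a complement-domain membrane protein, with 24.9 to 71.4 CPM in neuron total mRNA and 19.6 to 76.1 in MN1 cells, although in footprints it was higher by 4.01 ± 0.33.

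Of the guidance receptors, ligands and receptor tyrosine kinases (10 genes), 8 were higher in neuron total mRNA and 2 lower. Robo2, a receptor of Slit proteins, differed by 7.46 ± 0.40 and Unc5d, a netrin receptor, by 8.79 ± 0.48. Slit3 went the other way, with 361 to 446 CPM in MN1 cells (median 407) and 66.3 to 150 in neurons (median 82.6). Its log2 fold change was −2.21 ± 0.14 (adjusted p = 1.3e-09, edgeR). Alk, a receptor tyrosine kinase known from neuroblastoma, was also lower, at 6.72 to 12.0 CPM against 20.3 to 37.9 (−1.45 ± 0.17). All 6 receptor-type tyrosine phosphatases were higher in both library types, with Ptprn2 at 4.60 ± 0.17 and Ptprd at 8.38 ± 0.38 in total mRNA.

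Synaptic scaffold and release proteins (10 genes) were higher in total mRNA and in footprints without exception. The postsynaptic scaffold Dlg2 lay between 258 and 493 CPM in neurons and 13.9 and 29.6 in MN1 cells (4.06 ± 0.24), and Rims1 of the release site differed by 7.14 ± 0.31. The 9 genes for ion transport and channel partners and the 10 for cyclic nucleotide, lipid and calcium signalling were all higher in total mRNA. They included Asic2, an acid-sensing channel (7.24 ± 0.26), Dpp10, a potassium channel partner (5.93 ± 0.29), and the intracellular calcium channels Ryr2 (3.05 ± 0.25) and Ryr3 (6.89 ± 0.44). In footprints all 9 of the former and 8 of 9 tested of the latter were higher.

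All 13 tested genes of the list of transcription factors and chromatin regulators were higher in neurons, but by less, with a median of 3.85. Auts2 differed by 1.96 ± 0.14 and Sox5 by 5.03 ± 0.28. Of 8 genes for glycan synthesis and proteoglycans 7 were higher, and of 10 tested genes for the cytoskeleton and the dystrophin complex 9 were, among them the exchange factor Kalrn (5.01 ± 0.26) and the microtubule-linked Nav3 (4.66 ± 0.25). Both RNA-binding proteins were higher in total mRNA, Celf2, a splicing factor, by 9.23 ± 0.40, and Rbms3 by 0.96 ± 0.30. Of 19 tested genes known as common fragile sites 15 were higher and 1, Immp2l, was lower.

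Some messages had few or no MN1 reads in a library type. Fam155a, a subunit of the sodium leak channel complex, had no read in the 6 MN1 total mRNA libraries and 2530 in neurons (89.7 to 121 CPM), so it was at least 492-fold higher against a floor of 3 counts over the group. Nkain2 was at least 399-fold higher. Ntm, an adhesion protein with 3 MN1 reads, had a ratio of 743 (254 to 3604, counting error only) and the intracellular fibroblast growth factor homolog Fgf13, with 2, a ratio of 830 (230 to 6854). In footprints Tenm2, a teneurin, had no MN1 read and was at least 527-fold higher, and Ptprk was at least 357-fold higher. Not all were absent from the other library type. Tenm2 had 17 and Ptprk 5 MN1 reads in total mRNA, and Fam155a had 2 in footprints.

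The 8 genes lower in neuron total mRNA were Slit3, Alk, Chd1, Pard3, St6galnac3, Immp2l, Lrba and Adgrv1. Chd1 lay between 95.8 and 173 CPM in MN1 cells and 16.2 and 41.2 in neurons (−2.21 ± 0.22), and the polarity protein Pard3 between 73.3 and 106 and 16.8 and 28.1 (−2.04 ± 0.15). Neither pair of ranges overlapped. Chd1, Pard3, St6galnac3 (−2.00 ± 0.31) and Immp2l (−2.14 ± 0.46) were lower in footprints as well. Slit3, Wwox and Rbms3 also passed in footprints, but by −0.32 ± 0.12, −0.57 ± 0.24 and −0.45 ± 0.19, and these 3 calls held in only 3, 1 and 1 of the 14 fits that each left out 1 library. With the GFP and WT groups alone 4 genes were lower in total mRNA instead of 8, since St6galnac3, Immp2l, Lrba and Adgrv1 did not pass with 2 libraries against 2.

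The second question was whether hTDP-43 or hTDP-43 A315T changed the long genes. In the 12 comparisons of groups within a cell type and library type, between 31 and 171 of them were tested. Without a block for the date, none passed an adjusted p of 0.05 in any comparison with edgeR, and none with DESeq2. This does not show that their levels were alike. Over all genes tested the share past the adjusted threshold was 0.0115%, 0.00965% and 0.01% in MN1 footprints and total mRNA for A315T over GFP and in MN1 total mRNA for hTDP-43 over GFP, and 0% in the other 9 comparisons. Comparisons within a cell type share their control or mutant cultures and are not independent of each other.

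In MN1 cells the median log2 fold change of the tested long genes lay between −0.09 and 0.11 in the 6 comparisons. At an unadjusted p under 0.05, A315T over GFP counted 2 of 41 genes in footprints (2.83% of all genes tested) and 3 of 55 in total mRNA (5.29%). A315T over hTDP-43 counted 3 of 31 (2.34%) and 2 of 51 (3.52%), and hTDP-43 over GFP 3 of 38 (1.38%) and 0 of 52 (0.673%). In total mRNA Pkhd1 had the smallest p for A315T over GFP, with a log2 fold change of 0.98 ± 0.34 (adjusted p = 0.85). The replicate numbers mark cultures of the same date, and with this number as a block 4 calls appeared, all in footprints. Adarb2, a relative of the RNA-editing enzymes without known activity, had 188 and 41.1 CPM in GFP footprints, 140 and 71.3 with hTDP-43 and 352 and 173 with A315T. The groups overlapped, but within each replicate number A315T was the highest. With the block its log2 fold change was 1.19 ± 0.17 for A315T over GFP (adjusted p = 0.00032) and 1.22 ± 0.16 over hTDP-43 (adjusted p = 1.2e-09), against a share of 0.624% and 0.706% of all genes past the threshold in these fits. Without the block both had an adjusted p of 1.00. Against GFP without a block, the value was 0.64 without A315T replicate 1, 1.56 without A315T replicate 2, 2.67 without GFP replicate 1 and 0.50 without GFP replicate 2. Adarb2 had only 2.74 to 6.84 CPM in MN1 total mRNA.

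The other calls of the blocked fit were Pard3 and Gmds, both for A315T over hTDP-43. Pard3 footprints were at 97.0 and 68.1 CPM with A315T and 41.9 and 42.2 with hTDP-43 (0.94, adjusted p = 0.043), and GFP cells had 80.8 and 67.5. Gmds, an enzyme of GDP-fucose synthesis, was at 9.28 and 5.24 CPM with A315T and 23.8 and 31.7 with hTDP-43 (−1.82, adjusted p = 0.035). In both genes these groups did not overlap, and neither passed without the block. The 5.24 CPM of Gmds in A315T replicate 2 is the level of 3 reads, so its separation rests on few reads. Against GFP the log2 fold change of Gmds was −0.72 with A315T and 1.13 with hTDP-43, and neither passed.

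In neurons the counts at an unadjusted p under 0.05 were 7 of 151 in footprints (3.15% of all genes tested) and 3 of 169 in total mRNA (1.64%) for A315T over WT, 10 of 131 (5.16%) and 2 of 171 (0.372%) for hTDP-43 over WT, and 3 of 138 (2.59%) and 3 of 162 (1.06%) for A315T over hTDP-43.

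In neuron total mRNA the long genes lay on balance lower with A315T than in WT: 30 of the 169 tested had a log2 fold change above 0, with a median of −0.25 against 0.01 for all protein-coding genes. The shift was graded by span, from 0.14 under 10 kb over 0.04, −0.07, −0.12 and −0.16 to the −0.25 of the long genes. It rested on 1 library. Without WT replicate 3 the median was 0.23 and 137 of 171 genes lay above 0, and without WT replicate 2 it was −0.69, with 25 of 172 genes lower and none higher at an adjusted p of 0.05, where 6.57% of all genes tested were lower. Within replicate number 2 the median difference was 0.13 and within number 3 it was −0.82. WT replicate 3 is the library with 18.8% of its reads on Lars2, and the part of that in the result was not tested.

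**Figure D4:**
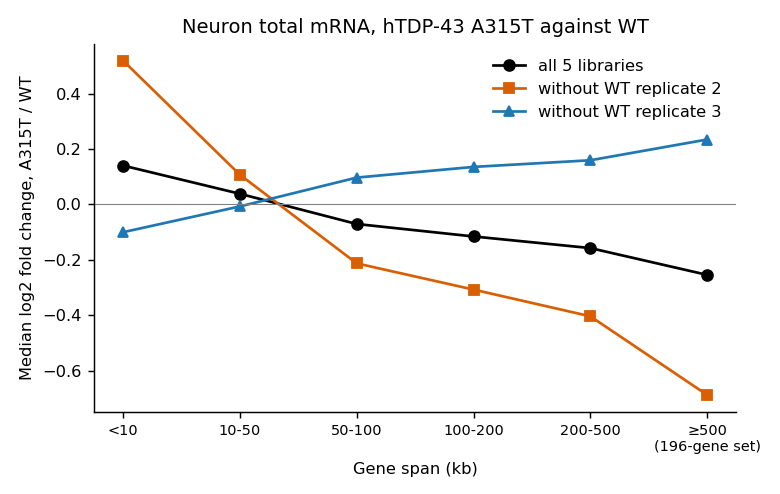
Median log2 fold change of A315T over WT in neuron total mRNA by gene span (kb), with all 5 libraries and without either WT library. The median of the long genes is −0.25 with all libraries, −0.69 without WT replicate 2 and 0.23 without WT replicate 3, and the slope over span turns with it.

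The same library had the highest neuron total mRNA value of each of the 3 TDP-43 targets. Nrxn3 had 134 and 445 CPM in WT total mRNA, 285, 149 and 334 with hTDP-43, and 260, 190 and 152 with A315T. Nlgn1 had 31.7 and 95.3 in WT, 58.2, 37.8 and 44.8 with hTDP-43, and 64.9, 52.1 and 36.4 with A315T. In both genes all transgenic libraries lay between the WT libraries. Without the TMM factor WT replicate 3 had 303 CPM of Nrxn3 and 64.9 of Nlgn1, and the transgenic libraries still lay between the WT libraries. Fgf14 differed. Without the factor it had 20.5 and 27.8 CPM in WT, 23.5, 16.2 and 25.0 with hTDP-43, and 25.2, 19.1 and 18.8 with A315T. There hTDP-43 replicate 2 and A315T replicates 2 and 3 lay below both WT libraries.

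Against WT the log2 fold changes with A315T were −0.53 ± 0.47 for Nrxn3, −0.30 ± 0.46 for Nlgn1 and −0.43 ± 0.37 for Fgf14, and none passed. For Nrxn3 the value was −1.13 ± 0.26 without WT replicate 2 (adjusted p = 0.024, edgeR) and 0.58 ± 0.28 without WT replicate 3 (adjusted p = 1.00). In footprints Nrxn3 was at 297 and 277 CPM in WT, 449, 338 and 454 with hTDP-43, and 436, 315.1 and 308 with A315T. There both transgenic groups lay above the WT libraries, and neither difference passed (0.54 ± 0.18 for hTDP-43, adjusted p = 0.72, and 0.31 ± 0.19 for A315T, adjusted p = 1.00). These genes had too few reads in MN1 cells to be compared between transfections.

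With the block 1 of the 169 long genes passed for A315T against WT in neuron total mRNA, against 0.293% of all genes. It was again Adarb2, with 57.4 and 983 CPM in WT, 93.4, 51.8 and 459 with hTDP-43 and 103, 53.4 and 72.8 with A315T (−1.98 ± 0.51, adjusted p = 0.041). The 2 libraries at 983 and 459 CPM are those with the highest share of Lars2. Without WT replicate 3 the log2 fold change of Adarb2 was 0.42 ± 0.33, and its neuron footprints lay between 154 and 373 CPM.

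For hTDP-43 against WT the total mRNA median was −0.14, with 54 of 171 genes above 0, and it was 0.38 without WT replicate 3 and −0.57 without WT replicate 2. Within replicate number 2 it was 0.049 and within number 3 it was −0.27. Footprints gave small positive medians, 0.11 for A315T (101 of 151 above 0) and 0.17 for hTDP-43 (103 of 131). These too were graded by span. Genes of 200 to 500 kb had medians of 0.070 and 0.10, and those under 10 kb −0.024 and −0.059. For A315T the median of the long genes was −0.015 within replicate number 2 (74 of 151 above 0) and 0.11 within number 3. The pairs of the same date thus did not share a direction, and for hTDP-43 the median was 0.064 and 0.15. All 10 genes of the unadjusted count for hTDP-43 over WT in footprints were higher with hTDP-43. Slit3 had the smallest p among them (0.00042, adjusted p = 0.32). Its footprints were at 106 and 74.8 CPM in WT, 169, 188 and 167 with hTDP-43 and 157, 131 and 138 with A315T, so that WT lay below both transgenic groups. A315T against hTDP-43 gave a median of −0.10 in total mRNA, which rested on 1 pair. It was 0.12 within replicate number 1 (120 of 162 above 0), 0.079 within number 2 (99 of 162) and −0.56 within number 3, whose hTDP-43 library has 14.1% of its reads on Lars2, and without that library 83 of 166 genes lay above 0. In footprints the median was −0.076, and within replicate numbers 1, 2 and 3 it was −0.034, −0.077 and 0.00084.

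The third comparison set footprints against total mRNA of the same cultures, which relates ribosome occupancy to the amount of message. Total mRNA was selected by its poly(A) tail and footprints were not, so the ratio also holds that step. In neurons 61 of 167 long genes were higher in footprints and 32 lower, where 26.6% and 27.3% of all genes tested were. The median log2 ratio was 0.15, against 0.01 for all protein-coding genes and −0.03 for those of 200 to 500 kb. In MN1 cells 55 could be tested, 14 higher and 12 lower against 27.2% and 30.2% of all genes, with a median of −0.07. The split in neurons moved with 2 WT libraries: it was 40 higher and 38 lower without WT replicate 2, 67 and 22 without WT replicate 3, and 75 and 16 without both cultures with over 10% of reads on Lars2.

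The neuron ratios are given by role as a description, since differences between the roles were not tested. Of 41 tested adhesion and recognition genes 25 were higher in footprints and 5 lower, with a median of 0.59. Among them Nlgn1 had a median of 76.5 CPM in footprints and 48.5 in total mRNA (0.65 ± 0.21, adjusted p = 0.017) and Nrxn3 327 and 225 (0.60 ± 0.22, adjusted p = 0.027). Tenm1 (1.23 ± 0.23) and Cntn4 (1.30 ± 0.27) had larger ratios. The call of Nlgn1 was lost without A315T replicate 3, hTDP-43 replicate 3 or WT replicate 2 (highest adjusted p = 0.11). That of Nrxn3 was lost without A315T replicate 2 or 3, hTDP-43 replicate 1 or 3 or WT replicate 2 (highest adjusted p = 0.21). The 5 lower were Dscam, Pcdh15, Csmd2, Tenm4 and Ctnnd2. Receptor phosphatases counted 4 higher and 1 lower, and guidance receptors 5 and 1, with Dcc, the netrin receptor, at 1.26 ± 0.30, which did not pass without hTDP-43 replicate 1.

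In the list of transcription factors and chromatin regulators 5 of 13 were lower and 1 was higher. The lower ones were Lpp (−2.21 ± 0.60), Rora (−1.39 ± 0.30), Zbtb20 (−1.37 ± 0.36), Foxp1 and Cdk14, of which Cdk14 is a kinase and Lpp a focal adhesion protein that also enters the nucleus. The higher one was Dach2 (1.44 ± 0.18). Cytoskeletal genes counted 1 higher and 3 lower. Fgf14 had −0.08 ± 0.22 and did not pass.

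The largest ratio in neurons belonged to Fstl5, a secreted follistatin-like protein, with 48.1 to 78.5 CPM in footprints and 10.8 to 34.8 in total mRNA (1.78 ± 0.18). Aff2, a nuclear protein of the AF4 family (1.64 ± 0.22), Lrp1b, a lipoprotein receptor relative (1.37 ± 0.25), and Edil3, a secreted integrin ligand (1.30 ± 0.15), came close. Among the lowest ratios, beside that of Lpp, Fam155a had 15.6 to 32.2 CPM in footprints and 89.7 to 121 in total mRNA (−2.04 ± 0.15). Pkhd1 (−1.98 ± 0.54), Nckap5 (−1.56 ± 0.40), Arhgap6 (−1.29 ± 0.49) and Rgs6, a regulator of G protein signalling (−1.10 ± 0.20), were lower too, although Arhgap6 did not pass without A315T replicate 3 or WT replicate 3. Coding sequence made up a median of 34.6% of exon length in the genes that were higher, 28.8% in those that were lower and 25.1% in those that did not pass, over genes with the same coordinates in the later annotation. Across the 167 genes Spearman's rho of the log2 ratio with TG runs per 100 kb was −0.30, as a description.

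In MN1 cells Dach2, a transcription factor, had 4.19 to 39.6 CPM in footprints and 0 to 0.905 in total mRNA (5.62 ± 0.68), and Adarb2 41.1 to 352 and 2.74 to 6.84 (5.09 ± 0.38). Dach2 had only 6 MN1 total mRNA reads in all, so the size of its ratio is poorly fixed. Csmd3 had 0 to 10.98 in footprints and 19.6 to 76.1 in total mRNA (−3.70 ± 0.58), and Slit3 108 to 188 and 361 to 446 (−1.22 ± 0.11). In each of these 4 genes the library types did not overlap. Of the 26 calls in MN1 cells, 16 were lost in at least 1 fit that left out a culture. Pard3b (1.84 ± 0.73) was one of these, at −0.54 without hTDP-43 replicate 2. Others past the threshold were Cdk14, Fhit, Dpyd, Gpc6 and Slc7a11 among those higher, and Sox6, Pkhd1, Lrba, Atrnl1, Erc2 and B3galt1 among those lower.

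The ratio itself differed between the cell types in 12 of 166 long genes, 6 higher in neurons and 6 lower, where 5.94% and 2.13% of all genes tested were. Csmd3 (4.24 ± 0.59) and Slit3 (2.00 ± 0.20) were higher in neurons, as were Alk (1.24), Astn2 (1.23), Lrba (1.06) and Atrnl1 (0.97). Adarb2 (−4.62 ± 0.77), Dach2 (−4.11 ± 0.65), Anks1b (−2.05), Cdk14 (−1.95), Ctnnd2 (−1.87) and Rbms3 (−1.29) were lower. Slit3 thus had a log2 ratio of −1.22 in MN1 cells and 0.68 ± 0.13 in neurons. Csmd3, Slit3, Adarb2 and Dach2 passed in all 14 fits without 1 culture, while Lrba passed in 6, Ctnnd2 in 8 and Rbms3 in 3. The value of Dach2 rests on 6 MN1 total mRNA reads. Alk, Astn2 and Atrnl1 did not pass without MN1 hTDP-43 replicate 1, Cdk14 without MN1 hTDP-43 replicate 2, and Anks1b without MN1 hTDP-43 replicate 1 or MN1 A315T replicate 2. Without MN1 hTDP-43 replicate 1 there were 2 higher, without neuron WT replicate 3 there were 10 higher, without MN1 A315T replicate 2 or hTDP-43 replicate 2 there were 3 lower, and without both cultures high in Lars2 there were 12 higher and 4 lower.

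**Figure D5:**
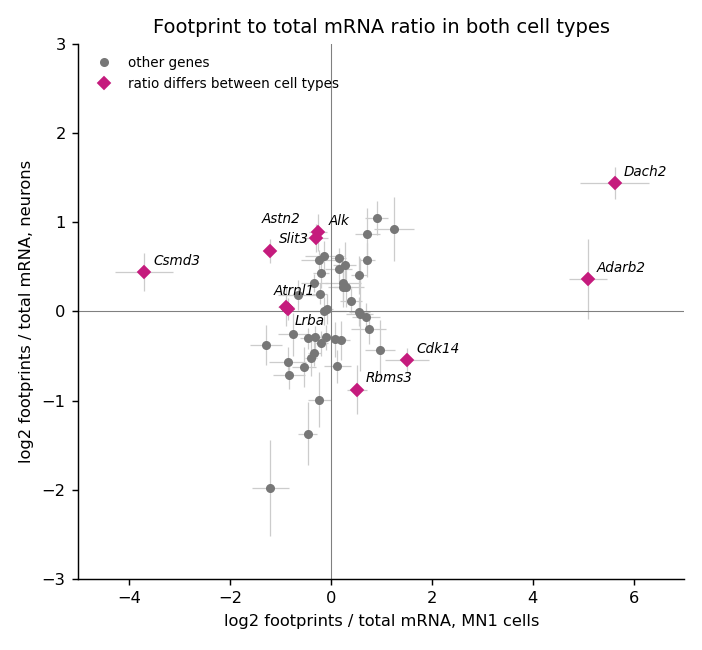
Log2 ratio of footprints to total mRNA in MN1 cells (horizontal axis) and neurons (vertical axis) for the 52 long genes tested in both, with grey bars for SE. Diamonds mark the 10 of these whose ratio differed between the cell types, among them Adarb2 and Dach2 at the right and Csmd3 at the left.

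The ratio was also compared between groups within each cell type. None of the 52 to 169 genes tested passed in any of the 6 comparisons with edgeR or DESeq2. In the edgeR fits without a block no gene of any kind did (0% of all genes tested). With each culture as a block, 0.0198% of all genes passed in MN1 cells for A315T over GFP and 0.0399% for A315T over hTDP-43. No long gene was among them. At an unadjusted p under 0.05 there were 2 in each MN1 comparison, where 2.18% of all genes tested were for A315T over GFP, 2.3% for A315T over hTDP-43 and 1.22% for hTDP-43 over GFP. In neurons there were 4 for A315T over WT (1.65%), 2 for A315T over hTDP-43 (1.19%) and 2 for hTDP-43 over WT (0.688%). In neurons the median for A315T against WT was 0.40, with 142 of 169 genes above 0, and for hTDP-43 against WT 0.33. Both turned without WT replicate 3, to −0.17 and −0.28, and for A315T the median was 0.84 without WT replicate 2.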

How the data were processed

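The deposited files hold raw counts of reads per gene. Per the labels and the study's methods, the authors clipped adapters (cutadapt 1.8.1), removed reads on annotated non-coding RNA (Bowtie2), aligned the rest to GRCm38 (TopHat2) and counted reads on exons (featureCounts 1.4.4, Ensembl 80) without strand, so that reads of a gene and of an overlapping antisense gene cannot be told apart. Symbols and biotypes came from GENCODE M21, matched by gene ID.

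All tests used edgeR 4.0.16 in R 4.3.3 (filter with minimum count 10 and minimum total 15, TMM, quasi-likelihood test, Benjamini-Hochberg adjustment over all genes tested, threshold 0.05). Only the groups compared entered a fit. The study used DESeq, and DESeq2 1.42.0 stood among the alternatives. Other alternatives were RLE scaling, no filter, the replicate block, control groups only, changes relative to the median protein-coding gene, and leaving out each library or culture. A fit that left a group with 1 library assumed that it varied like the others. The fits were checked on simulated counts, where most 2-fold changes were missed for A315T against WT in neuron total mRNA. Standard errors were derived from the log2 fold change and its F statistic.

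CPM are counts per 1e6 reads of the effective library size, the assigned reads times the TMM factor (0.681 to 1.25, set within each library type over both cell types). Depth was 166064 to 6969578 reads per library, where 3 counts correspond to 0.48 to 20.0 CPM. Intervals cover counting error only.

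Same replicate numbers carry the same date in the titles within a cell type, apart from the year of 1 title, and WT has numbers 2 and 3 only. Deviations from the group means of same-numbered libraries correlated with a mean r of 0.44 and 0.34 in MN1 total mRNA and footprints and 0.17 and 0.12 in neurons. Where replicates were not separate cultures, p-values measure only the spread between these samples, which may be technical.

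The genes and lists were chosen with earlier results of these data known. Genes named were those with the largest changes past the threshold with no overlap between cell types, the smallest p or any call between groups, the largest footprint ratios, the highest RPKM, the longest spans and the nearest to the limit, and up to 4 per role, beside TDP-43 targets, 3 of which are reported here. Other genes named (genes lower in neurons with overlap, Csmd3, Foxp1, Dscam, Pcdh15, Csmd2, Tenm4 and genes not tested) were chosen after their values were seen.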

Additional observations from a re-analysis of the deposited data

Results flagged for a closer look

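The footprint to total mRNA ratio differed between neurons and MN1 cells in 12 of 166 long genes (7.23%), by the test of the difference. On the log2 scale, neurons minus MN1 cells, it was higher for Csmd3 (4.24), Slit3 (2.00), Alk (1.24), Astn2 (1.23), Lrba (1.06) and Atrnl1 (0.97). It was lower for Adarb2 (−4.62), Dach2 (−4.11), Anks1b (−2.05), Cdk14 (−1.95), Ctnnd2 (−1.87) and Rbms3 (−1.29). The share of all genes with such a difference was 8.07%. Many of the 166 had few MN1 reads and could hardly pass, so these shares do not settle whether long genes differed more often. Of the 52 long genes whose ratio was tested within both cell types, 10 differed, and the share of all genes was not computed for that subset. Some of the 12 calls did not hold without 1 culture, as given above. The cell types also differ in cycloheximide treatment, and its part in these values was not tested.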

How the results depend on the processing

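Of the values of single genes, 1651 kept their direction and their side of the threshold under the alternatives, 78 lost the call, 19 gained one and 1 turned, Pard3b in MN1 footprints over total mRNA, which ranged from −0.54 without MN1 hTDP-43 replicate 2 to 2.64 without MN1 hTDP-43 replicate 1. The count of genes lower in neurons was 4 in total mRNA with control groups only, and 4 to 7 in footprints without 1 library. Without the filter on low counts 1 gene passed in MN1 footprints for A315T against GFP and for A315T against hTDP-43, in neuron total mRNA for each pair of groups, and in the neuron ratio for A315T against WT and A315T against hTDP-43, and 2 passed in neuron footprints for hTDP-43 against WT. The replicate block, which pairs cultures of the same date, gave 1 gene for A315T against GFP and 3 for A315T against hTDP-43 in MN1 footprints and 1 for A315T against WT in neuron total mRNA, and moved no other count of calls by over 1.5 times. Leaving out 1 library gave 0 to 2 in MN1 footprints for A315T against GFP and 0 to 1 in total mRNA, 0 to 1 and 0 to 2 for A315T against hTDP-43, 0 to 1 in footprints for hTDP-43 against GFP, 0 to 25 in neuron total mRNA for A315T against WT, and 0 to 2 for the ratio in that comparison. For footprints over total mRNA in MN1 cells, calls ranged from 15 to 22 without 1 culture (6 to 13 higher, 7 to 11 lower), DESeq2 had 7 lower, and the median ran from −0.14 to 0.089, turning to 0.089 without A315T replicate 2 and 0.048 without GFP replicate 1. In neurons 40 to 67 were higher without 1 culture, and 16 were lower without both cultures high in Lars2, an alternative chosen after seeing the data. The difference of the ratio between cell types had 6 to 14 calls without 1 culture (2 to 10 higher, 3 to 7 lower) and 12 higher without both cultures high in Lars2, and its median turned to −0.19 with DESeq2. The cause of these changes was not tested. Low counts limit the fold changes between cell types, since in MN1 cells 32 of the genes tested in total mRNA and 76 in footprints had 3 reads or fewer.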
